A study of Mus musculus with 54 samples.

Results

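The cells described here are mouse bone marrow progenitors rich in Elane mRNA, taken from a Cebpe knockout and from 3 reference groups. A cell was chosen when its well held a single sorted cell and at least 500 unique molecular identifiers (UMIs, 1 per captured mRNA molecule), and when Elane made up 0.5% or more of those UMIs. Such cells are called Elane-high below. Of 8399 single cells with 500 or more UMIs in the whole series, 1382 were Elane-high, and 1155 of those came from the Cebpe knockout (409), the Cebpe control (66) and the unsorted myeloid progenitors (680). A further 69 came from the Cebpa control pools sequenced in the same batch.

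All cells were sorted as lineage-negative, cKit-positive and Sca1-negative progenitors and profiled with MARS-seq, a plate-based method that tags the 3′ end of each mRNA. A GEO sample was 1 amplification pool of 192 wells, with 190 single cells and 2 empty wells. The authors' well table and the GEO labels name different groups for all 6 Cebpe pools, and the groups follow the well table. It gives 4 knockout pools from plates 13 and 15, with mouse ID 5, and 2 control pools from plate 16, with mouse ID 7. The Cebpa control has 2 pools from plate 14, with mouse ID 6, in that same sequencing batch. The unsorted reference has 16 pools from 8 plates, with mouse ID 2, in other sequencing batches, and there the labels and the table name the same group.

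By genotype the labels name Cebpe-/- for samples labelled Cebpe KO, Cebpe+/+ for those labelled Cebpe control, and wild type for the unsorted cells. Samples labelled Cebpa control were Cebpa(flox/flox) without a named Cre. Apart from the unsorted cells, the groups used here carry other label names. Knockout pools 1 and 2 were labelled Cebpa control, and knockout pools 3 and 4 Cebpe control. Both Cebpe control pools were labelled Cebpa KO, and both Cebpa control pools Cebpe KO. All mice were C57BL/6. The labels give an age of 14 weeks and a facility in Copenhagen for the samples of the knockout batch, and 6 to 8 weeks and the Weizmann Institute for the unsorted samples. Under their GEO labels, knockout pools 1 and 2 and both control pools came from animals given 300 µg poly(I:C), an inducer of interferon, in 3 injections 3 weeks before harvest. Because those labels and the table disagree, which of these mice had poly(I:C) cannot be told. Each group carries 1 mouse ID, and whether it stands for 1 animal is not stated. Every p-value below therefore measures the spread between pools, and a difference between individual animals cannot be told apart from a difference between genotypes.

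Elane encodes neutrophil elastase, a serine protease of the primary (azurophil) granules, which are loaded at the promyelocyte stage. Secondary (specific) granules follow, with lactoferrin (Ltf), lipocalin 2 (Lcn2) and the cathelicidin Camp, and gelatinase granules come last. C/EBP epsilon is the bZIP transcription factor known for driving the step from primary to secondary granules in neutrophils and for eosinophil maturation, and C/EBP alpha acts earlier, at entry into the granulocyte and monocyte lineage. Mice without Cebpe are known to lack normal secondary granule proteins in mature neutrophils.

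C/EBP factors bind as dimers to DNA with the pattern TTGCNNAA, which was searched on both strands (TTNNGCAA is the same pattern on the opposite strand). Promoters are shown for 3 secondary granule genes whose levels were far apart between knockout and control (Lcn2, Fcnb and Chi3l3), and for Ltf and Ngp, which are secondary granule genes with 0 UMIs in these cells. Each line is the 250 bases before the RefSeq start on the gene's strand in GRCm38.p6, 5′ to 3′, with matches in capitals. The windows lie at chr2:32387740-32387989 (minus strand, Lcn2), chr2:28084879-28085128 (minus, Fcnb), chr3:106167565-106167814 (minus, Chi3l3), chr9:111019042-111019291 (plus, Ltf) and chr9:110419558-110419807 (plus, Ngp).
Lcn2: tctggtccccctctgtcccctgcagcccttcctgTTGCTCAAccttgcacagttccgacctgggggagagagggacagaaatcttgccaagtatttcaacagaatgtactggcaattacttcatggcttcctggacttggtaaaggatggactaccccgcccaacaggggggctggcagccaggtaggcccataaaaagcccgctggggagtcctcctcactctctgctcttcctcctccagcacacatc
Fcnb: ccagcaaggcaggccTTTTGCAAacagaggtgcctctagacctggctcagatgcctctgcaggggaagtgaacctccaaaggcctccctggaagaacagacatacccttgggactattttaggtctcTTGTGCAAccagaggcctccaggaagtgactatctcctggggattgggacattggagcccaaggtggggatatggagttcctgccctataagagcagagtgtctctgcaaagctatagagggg
Chi3l3 (RefSeq symbol Chil3): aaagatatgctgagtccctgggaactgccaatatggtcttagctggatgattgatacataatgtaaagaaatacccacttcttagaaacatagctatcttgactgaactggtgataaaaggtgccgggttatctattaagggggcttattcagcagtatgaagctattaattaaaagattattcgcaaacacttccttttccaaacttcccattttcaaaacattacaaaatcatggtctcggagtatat
Ltf: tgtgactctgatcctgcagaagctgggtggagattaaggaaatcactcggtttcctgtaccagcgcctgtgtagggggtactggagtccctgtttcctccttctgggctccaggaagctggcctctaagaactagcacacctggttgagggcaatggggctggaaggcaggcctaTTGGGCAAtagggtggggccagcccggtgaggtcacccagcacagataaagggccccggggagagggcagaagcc
Ngp: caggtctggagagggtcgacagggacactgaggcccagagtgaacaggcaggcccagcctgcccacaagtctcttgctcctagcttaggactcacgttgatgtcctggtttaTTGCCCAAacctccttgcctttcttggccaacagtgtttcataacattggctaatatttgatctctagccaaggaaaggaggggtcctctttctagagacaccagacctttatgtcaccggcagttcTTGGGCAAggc
The pattern was found on either strand in 9.56% of all 32851 promoter windows of this length in the RefSeq table. Of 24 genes looked up, 21 had an entry. Lcn2 held 1 match starting 216 bases before the start, Fcnb held 2, at 235 and 123 bases, and Chi3l3 held none. Ltf held 1 match at 75 bases and Ngp held 2, at 138 and 11 bases. Among the other genes described below, S100a9 held 1 match at 236 bases and C3 held 1 at 45 bases, and none was found for S100a8, Lrg1, Cd177, F10, Itgam, Cebpa, Cd34, Myb or Hdc. These matches describe letters in a window and were not tested as binding sites.

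Elane-high cells were a larger share of the knockout pools than of any reference pool. They made up 409 of 559 knockout cells (73.2%, exact binomial 95% interval 69.3% to 76.8%, counting error only), with 69.0% to 76.4% in the 4 pools. The share was 66 of 250 in the control (26.4%, interval 21.0% to 32.3%), with 29.1% and 23.6% in its pools, and 680 of 2732 in unsorted progenitors (24.9%), with 20.0% to 31.3% in the 16 pools. The Cebpa control of the same batch had 69 of 332 cells (20.8%). Elane chose these cells, so its values are given with no test. Inside the chosen cells, summed Elane was 20574, 21132, 17088 and 17378 CPM in knockout pools 1 to 4 (counts for each 1000000 UMIs of a library size scaled by TMM, the scale of all CPM per pool of Elane-high cells below), against 10945 and 13532 CPM in control pools 1 and 2 and a median of 12527 CPM in the unsorted pools (10339 to 16213). The median cell carried Elane at 1.87% of its UMIs in the knockout, 1.11% in the control and 1.23% in unsorted progenitors. Just below the cut, at 0.4% to 0.5%, lay 11 knockout, 4 control and 61 unsorted cells, with medians of 0.450%, 0.436% and 0.457%. Just above it, at 0.5% to 0.6%, lay 7, 3 and 51 cells, with medians of 0.552%, 0.515% and 0.555%.

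Depth differed between the groups' pools. Summed UMIs of Elane-high cells were 297829 to 485608 per knockout pool, 115343 to 144514 per control pool, 99067 to 183107 per unsorted pool and 70013 to 81641 per Cebpa control pool. The median cell had 2616 and 2416 UMIs in knockout pools 1 and 2 (plate 13) and 4798 and 4827 in pools 3 and 4 (plate 15), against 3410 and 3194 in the control pools. Neutrophil progenitor transcripts were abundant in these groups. The sum of 10 markers was 64909 to 77993 CPM in knockout pools, 47291 to 55001 in control pools and 47918 to 70995 in unsorted pools. The markers were Elane, Mpo, Prtn3, Ctsg, Gfi1, Ms4a3, Cebpe, Fcnb, Gstm1 and Hp. Elane chose the cells, and Fcnb and Hp are on the secondary granule list, so the sum is not a measure of primary granule genes alone. Cd3e, Il7r and Gzma, of T cells, lymphoid progenitors and cytotoxic cells, were at 0 UMIs in knockout, control and unsorted Elane-high cells.

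Cebpe itself was at 0 UMIs in all 4 knockout pools. Control pools 1 and 2 held 30 and 18 Cebpe UMIs (207 and 160 CPM), the Cebpa control pools 15 and 28 (217 and 349 CPM), and the unsorted pools 108 to 346 CPM with a median of 185. Every reference pool thus had the transcript and no knockout pool did. Set against a floor of 3 UMIs over the group, Cebpe was at least 95.7-fold lower in knockout than in control cells (edgeR quasi-likelihood, Benjamini-Hochberg adjusted p = 6.7e-10) and at least 105-fold lower than in unsorted cells. The exons removed in the knockout are not named in the labels, so a 3′ tag may lie outside them. Under the GEO labels, 2 pools called Cebpe knockout (the Cebpa control pools here) would hold Cebpe transcripts, and 2 called Cebpe control (knockout pools 3 and 4 here) would hold none.

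The comparison of knockout with control asked which other transcripts differ among cells that all pass the Elane cut, though knockout cells lay further above it. The UMIs of a pool's Elane-high cells were added up, and the pool sums went into edgeR's quasi-likelihood test over 4690 genes, fitted with the unsorted pools, where p-values were adjusted by the Benjamini-Hochberg method. At an adjusted p under 0.05, 100 genes differed, which is 2.13% of those tested: 63 were higher in the knockout (1.34%) and 37 lower (0.789%). At an unadjusted p under 0.05 there were 663. In 98 of the 100 the knockout and control pools did not overlap, against 1430 of all genes (30.5%). The count fell to 32 without control pool 1 and to 34 without control pool 2.

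Most of the tested secondary granule genes were higher in the knockout, against 1.34% of all genes tested. Of 15 members, 12 had a UMI and 7 had enough for the test, and 6 of those 7 rose in the knockout (Chi3l3, Cd177, Lcn2, Fcnb, Hp and Itgam), with a median log2 ratio of 2.62 over the 7 (2.62 also with Cd177 at its bound), while the median over all genes tested was -0.00. A member could enter the test through its level in the knockout alone, and 5 of those with a UMI did not enter it. Pglyrp1, a peptidoglycan recognition protein, did not pass the test, at 245 to 277 CPM in knockout and 241 and 285 CPM in control pools (log2 ratio 0.00 ± 0.27 SE).

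Chi3l3 encodes Ym1, a chitinase-like lectin of murine neutrophils and macrophages. It stood at 5049, 3419, 4110 and 4059 CPM in knockout pools (4159 ± 671, SD, n = 4), against 6.90 and 17.8 CPM in control pools, 0 and 287 CPM in the Cebpa control pools and 0 to 114 CPM in unsorted pools, whose median was 0. All 4 knockout pools lay far above every reference pool. The edgeR quasi-likelihood log2 ratio to control was 8.39 ± 0.75 (SE, Benjamini-Hochberg adjusted p = 6.7e-10). The control sum rests on 3 UMIs, so the ratio of the summed counts has a wide counting interval, 8.48 on the log2 scale with 6.93 to 10.76. Chi3l3 has a near-identical copy, Chi3l4, and reads may have been split between them.

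Lcn2 encodes lipocalin 2, an iron-siderophore binding protein of secondary granules. Its levels were 1267, 1202, 1053 and 1026 CPM in knockout pools (1137 ± 116, SD, n = 4), 62.1 and 53.5 CPM in control, 86.9 and 62.4 CPM in the Cebpa control and 9.49 to 92.2 CPM in unsorted pools. The lowest knockout pool was above the highest reference pool, and the log2 ratio to control was 4.26 ± 0.38 (SE, edgeR quasi-likelihood, Benjamini-Hochberg adjusted p = 6.7e-10). Hp encodes haptoglobin, the haemoglobin scavenger stored in neutrophil granules, and had 2351, 2134, 2201 and 2155 CPM in knockout pools against 572 and 677 CPM in control, 1115 and 1260 CPM in the Cebpa control and 759 to 1365 CPM in unsorted pools. Its log2 ratio was 1.82 ± 0.19 to control (adjusted p = 4.1e-08), and control cells were themselves below unsorted cells by a log2 ratio of -0.66 (adjusted p = 0.023). Against unsorted cells the knockout was higher by 1.16 and against the Cebpa control by 0.90 (adjusted p = 0.0036).

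Cd177, a surface glycoprotein of neutrophils, had 107, 101, 79.0 and 97.4 CPM in knockout pools and 0 UMIs in both control pools. Set against the floor of 3 UMIs it was at least 8.08-fold higher in the knockout (edgeR quasi-likelihood, Benjamini-Hochberg adjusted p = 0.00023). Fcnb encodes ficolin B, a lectin-pathway recognition molecule. It had 381, 263, 312 and 309 CPM in knockout pools and 48.3 and 53.5 CPM in control pools, but 145 and 324 CPM in the Cebpa control pools. Its log2 ratio was 2.62 ± 0.56 to control (adjusted p = 0.0053) and 0.41 ± 0.46 to the Cebpa control (adjusted p = 0.69). Itgam encodes CD11b, a subunit of the complement receptor Mac-1, and had 236, 191, 179 and 190 CPM in knockout against 48.3 and 71.3 CPM in control pools (log2 ratio 1.74 ± 0.41, adjusted p = 0.013). Leaving out control pool 1 or control pool 2 ended the calls of Fcnb (adjusted p = 0.17 and 0.098) and Itgam (adjusted p = 0.28 and 0.097).

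Ltf and Ngp had 0 UMIs in the Elane-high cells of all 4 groups, which in the knockout allows up to 3 of 1591463 UMIs (1.89 CPM without TMM scaling). Camp had 15 UMIs in the knockout (8.32 to 10.8 CPM by pool), 2 in the control (6.90 and 8.91 CPM) and 10 in unsorted progenitors (0 to 17.6 CPM). In the Cebpa control it had 17 UMIs, at 203 and 37.4 CPM, all of them in cells with Elane at 2% or more. The log2 ratio of summed Camp counts, knockout to Cebpa control, was -3.54 with a counting interval of -4.65 to -2.45, the opposite direction to Chi3l3 and Lcn2. That interval leaves out the spread between pools, and no test over pools is given for Camp. In cells with Elane at 2% or more, Camp without TMM scaling was at 20.3 CPM in the knockout and 20.6 CPM in unsorted cells. There it was at 336 CPM in the Cebpa control and at 0 in the control's 6 cells. Mmp8, neutrophil collagenase, had 2 UMIs in the knockout, 1 in unsorted progenitors and 0 in both control groups. Chi3l1, another chitinase-like protein, had 25 UMIs in the knockout and 0 in the other 3 groups and was too low for the test.

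The S100 genes encode the calcium-binding alarmins that pair as calprotectin, an abundant cytosolic protein of neutrophils. On the gelatinase and S100 list, 4 of 12 members had a UMI in a row of their own, 3 were tested and 2 rose (S100a8 and S100a9). Of all genes tested, 1.34% rose. Here too a member could enter the test through its level in the knockout alone. S100a8 had 756 UMIs in the knockout, 1 in the control and 20 in unsorted cells. S100a8 had 873, 490, 376 and 350 CPM in knockout pools (522 ± 241, SD, n = 4), 6.90 and 0 CPM in control, 14.5 and 25.0 CPM in the Cebpa control and 0 to 30.7 CPM in unsorted pools. Knockout pools 1 and 2, from plate 13, were above pools 3 and 4, from plate 15, and all 4 were above every reference pool. The log2 ratio was 6.82 ± 0.72 (SE, edgeR quasi-likelihood, Benjamini-Hochberg adjusted p = 4.1e-08), and with 1 control UMI the ratio of sums was 6.98, with a counting interval of 4.50 to 12.29.

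S100a9 had 2884, 1577, 1749 and 2062 CPM in knockout pools (2068 ± 580, SD, n = 4) against 200 and 196 CPM in control pools, 14.5 and 74.9 CPM in the Cebpa control and 0 to 76.7 CPM in unsorted pools. The control level came from few cells: 44 of its 51 UMIs (86.3%) were in 3 of 66 cells, whereas the top 3 knockout cells held 11.6% and 302 of 409 cells had a UMI. The log2 ratio to control was 3.37 ± 0.42 (SE, edgeR quasi-likelihood, Benjamini-Hochberg adjusted p = 9.2e-07), and it was 7.74 to unsorted cells and 5.45 ± 0.58 to the Cebpa control. DESeq2 did not call it against the control (adjusted p = 0.31).

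**Figure D1:**
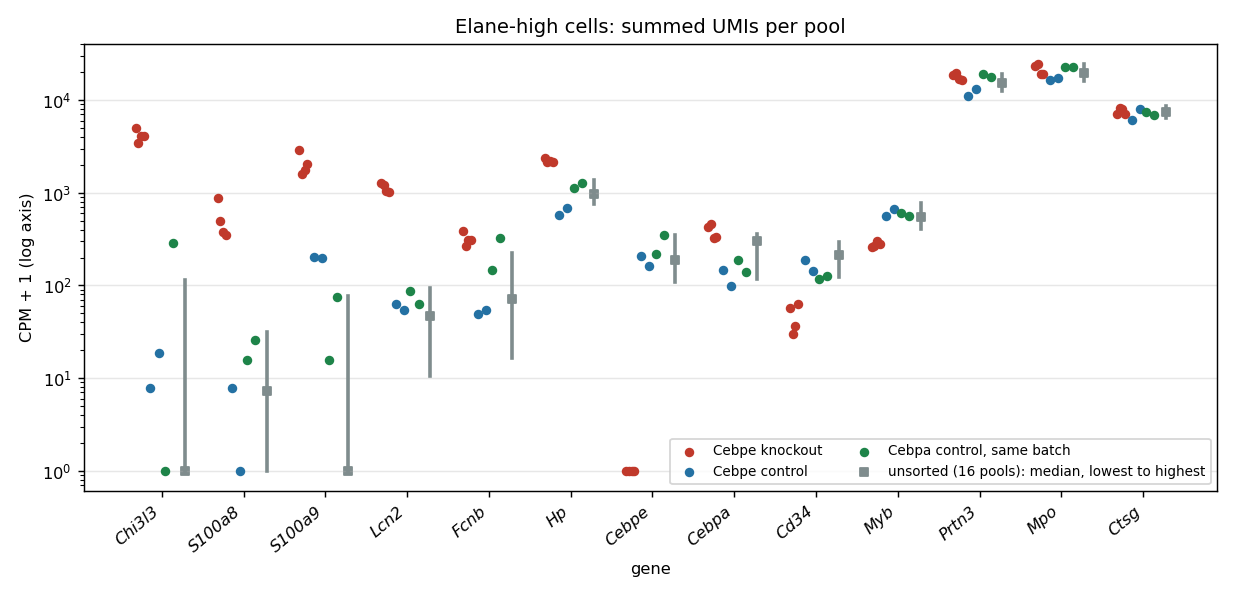
Summed level of 13 genes in Elane-high cells, as CPM + 1 on a log axis. Each point is 1 pool of the Cebpe knockout, the Cebpe control or the Cebpa control, and for the 16 unsorted pools the square is the median and the bar runs from the lowest to the highest pool. Chi3l3, S100a8, S100a9, Lcn2 and Hp lie above every reference pool in all 4 knockout pools, Cebpe is at 0 in all 4, Ctsg overlaps between knockout and control, and Mpo overlaps between the knockout and the other 2 references.

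Complement and coagulation genes with myeloid expression were tested in 4 of 13 cases, and 2 rose, against 1.34% of all genes tested. C3 encodes the central complement component and had 882, 860, 772 and 883 CPM in knockout pools against 193 and 250 CPM in control, 507 and 399 CPM in the Cebpa control and 203 to 499 CPM in unsorted pools (log2 ratio to control 1.94 ± 0.26, edgeR quasi-likelihood, Benjamini-Hochberg adjusted p = 5.7e-06). F10 encodes coagulation factor X and had 366, 425, 412 and 394 CPM against 41.4 and 89.1 CPM in control, 159 and 137 CPM in the Cebpa control and 30.7 to 107 CPM in unsorted pools (log2 ratio 2.65 ± 0.32, adjusted p = 4.9e-07). Both were above every reference pool in all 4 knockout pools. F13a1, the coagulation factor XIII A subunit, had 270 to 510 CPM in knockout and 269 and 294 CPM in control pools and did not pass (log2 ratio 0.52 ± 0.30). Outside the lists, 1100001G20Rik (Wfdc21 in RefSeq, a whey acidic protein domain gene) had 1396, 1094, 1009 and 1179 CPM against 55.2 and 178 CPM in control pools (log2 ratio 3.38 ± 0.52, adjusted p = 7.5e-05). Lrg1, a leucine-rich glycoprotein of neutrophil granules, had 164, 119, 150 and 169 CPM against 0 and 8.91 CPM. Its control sum was 1 UMI, the log2 ratio of sums was 5.30 (counting interval 2.80 to 10.61), and its call (adjusted p = 0.00023) was lost without control pool 1 (adjusted p = 0.062).

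Primary granule genes had smaller ratios than secondary granule genes, with Elane set aside because it chose the cells. Of 14 listed members 10 were tested and 1 rose (4 at an unadjusted edgeR p under 0.05), with a median log2 ratio of 0.41. Over all genes tested, 1.34% rose. Prtn3, proteinase 3, had 18504, 19725, 16730 and 16445 CPM in knockout against 11193 and 13202 CPM in control pools (log2 ratio 0.54 ± 0.13, edgeR quasi-likelihood, Benjamini-Hochberg adjusted p = 0.021). The Cebpa control pools, at 19162 and 17768 CPM, overlapped the knockout, and there the log2 ratio was -0.04 (adjusted p = 0.91). Without control pool 1 or control pool 2 the adjusted p was 0.33 and 0.086. Mpo, myeloperoxidase, had 23074, 24314, 19222 and 19143 CPM against 16573 and 17516 CPM (log2 ratio 0.32 ± 0.14, adjusted p = 0.27). Ctsg, cathepsin G, had 7151, 8153, 7927 and 7166 CPM against 6110 and 8103 CPM (log2 ratio 0.09 ± 0.14, adjusted p = 0.83), and its pools overlapped.

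Among C/EBP family genes, 4 of 7 were tested, and Cebpa rose while Cebpe fell. Over all genes tested, 1.34% rose and 0.789% fell. Cebpa had 429, 464, 324 and 335 CPM in knockout pools, 145 and 98.1 CPM in control pools and 188 and 137 CPM in the Cebpa control pools. Unsorted pools ranged from 115 to 360 CPM with a median of 298, so they overlapped the knockout. The log2 ratio was 1.62 ± 0.33 to control (edgeR quasi-likelihood, Benjamini-Hochberg adjusted p = 0.003), 1.26 to the Cebpa control (adjusted p = 0.036) and 0.53 to unsorted cells (adjusted p = 0.012), and control cells were below unsorted cells by -1.10 (adjusted p = 0.046). The call against the control was lost without control pool 2 (adjusted p = 0.12). Cebpg, a dimer partner of other C/EBP proteins, had 74.9 to 151 CPM in knockout and 82.8 and 62.4 CPM in control pools (log2 ratio 0.54 ± 0.39, adjusted p = 0.56). Cebpb and Cebpd had at most 2 UMIs in any of the knockout, control and unsorted groups.

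Of 32 listed myeloid and stem cell transcription factors 19 were tested, and 1 rose (Id1) and 3 fell (Myb, Myc and Klf1), with a median log2 ratio of -0.30. The shares over all genes tested were 1.34% higher and 0.789% lower. Myb, a regulator of progenitor proliferation, had 262, 263, 304 and 277 CPM in knockout pools, 559 and 660 CPM in control, 608 and 561 CPM in the Cebpa control and 408 to 779 CPM in unsorted pools. Every knockout pool was below every reference pool, and the log2 ratio to control was -1.14 ± 0.21 (edgeR quasi-likelihood, Benjamini-Hochberg adjusted p = 0.00082), with an adjusted p of 0.070 without control pool 2. Myc, a regulator of growth, had 303, 313, 314 and 227 CPM against 538 and 490 CPM in control pools (log2 ratio -0.85 ± 0.21, adjusted p = 0.024). The Cebpa control pools, at 275 and 299 CPM, were level with the knockout (log2 ratio 0.01, adjusted p = 0.99), and the call was lost without control pool 1 (adjusted p = 0.29) or control pool 2 (adjusted p = 0.12). Irf8, a monocyte and dendritic cell factor, had 318 to 435 CPM in knockout and 497 and 276 CPM in control pools (log2 ratio -0.08 ± 0.26). Gfi1, a repressor needed for neutrophil formation, had 56.7 to 119 CPM and 124 and 187 CPM (log2 ratio -0.72 ± 0.29, adjusted p = 0.23).

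Receptor and adhesion genes gave 3 rises and 1 fall among 13 tested of 21, where 1.34% of all genes tested rose and 0.789% fell. Csf3r, the G-CSF receptor, had 195, 180, 200 and 180 CPM in knockout pools, 75.9 and 62.4 CPM in control, 72.4 and 62.4 CPM in the Cebpa control and 46.0 to 168 CPM in unsorted pools (log2 ratio to control 1.42 ± 0.37, edgeR quasi-likelihood, Benjamini-Hochberg adjusted p = 0.028). Its call was lost without control pool 1 (adjusted p = 0.22) or control pool 2 (adjusted p = 0.27). Csf2ra and Csf2rb, subunits of the GM-CSF receptor, had log2 ratios of 1.39 ± 0.34 and 1.51 ± 0.36. For Csf2ra the knockout was level with unsorted cells (log2 ratio 0.03, adjusted p = 0.91) and the control was below them by -1.36 (adjusted p = 0.014). Ncf4, a cytosolic subunit of the NADPH oxidase, had 303 to 378 CPM in knockout and 103 and 160 CPM in control pools (log2 ratio 1.35 ± 0.29, adjusted p = 0.0051), and it was 1 of 4 tested oxidase genes to pass.

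Cd34, a sialomucin of early progenitors, had 56.7, 28.8, 35.4 and 62.7 CPM in knockout pools, 186 and 143 CPM in control, 116 and 125 CPM in the Cebpa control and 123 to 294 CPM in unsorted pools. No knockout pool reached any reference pool. The log2 ratio to control was -1.83 ± 0.35 (edgeR quasi-likelihood, Benjamini-Hochberg adjusted p = 0.0013), and its adjusted p was 0.17 without control pool 1. Surface CD34 was recorded for each cell during sorting, and this measure did not enter the choice of cells. Median surface CD34 of Elane-high cells was 442, 511, 425 and 353 intensity units in knockout pools (433 ± 64.9, SD, n = 4) and 740 and 668 in control pools (704 ± 50.9, SD, n = 2). Median surface FcgR, the Fc gamma receptors that rise along the granulocyte and monocyte path, was 4527, 3989, 3920 and 3931 in knockout pools and 3424.5 and 2780 in control pools. The pools did not overlap for either marker, and the exact 2-sided permutation test gave p = 0.133 for each (Benjamini-Hochberg adjusted p = 0.133, 2 comparisons), the smallest that 4 against 2 pools allow. The Cebpa control pools had CD34 medians of 338.5 and 296, below the knockout's own lowest pool, and FcgR medians of 5554 and 5031, above its highest. The unsorted pools had 215.5 to 420 and 741 to 2463, and the labels do not say whether instrument settings were the same across sorts.

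Hdc, histidine decarboxylase, had 139, 176, 175 and 173 CPM in knockout against 414 and 419 CPM in control pools (log2 ratio -1.33 ± 0.24, edgeR quasi-likelihood, Benjamini-Hochberg adjusted p = 0.00059). It was the single call among 15 tested neutrophil priming genes, where 2.13% of all genes tested were called. The Cebpa control, at 159 and 150 CPM, was level with the knockout (log2 ratio 0.12, adjusted p = 0.90). Cd27, a TNF receptor family member of early progenitors, had 31.5, 36.0, 27.0 and 19.5 CPM in knockout and 96.6 and 134 CPM in control pools (log2 ratio -2.02 ± 0.36, adjusted p = 0.00048), but 14.5 and 12.5 CPM in the Cebpa control pools (log2 ratio 1.01, adjusted p = 0.60). The call of Cd27 was lost without control pool 2 (adjusted p = 0.070). For Myc, Hdc and Cd27 the direction against the Cebpe control was therefore not seen against the other control of the same batch.

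Against the Cebpe control, monocyte genes had 0 calls among 11 tested by the edgeR quasi-likelihood test (6 at an unadjusted p under 0.05). Endoplasmic reticulum folding genes had 0 of 16 (4 unadjusted), S phase genes 0 of 20 (2 unadjusted) and mitosis genes 0 of 18 (0 unadjusted). Over all genes tested, 2.13% were called. The median log2 ratios of these 4 lists were 0.30, 0.29, -0.18 and 0.46. Monocyte marker sums overlapped, at 968 to 1372 CPM in knockout, 989 to 1462 CPM in control and 912 to 1268 CPM in unsorted pools. Interferon-stimulated genes were listed because of the poly(I:C) on the labels, and 0 of 7 passed (2 unadjusted), with a median of -0.23. Ifitm3, an interferon-induced membrane protein, had 290, 259, 214 and 167 CPM in knockout pools and 324 and 348 CPM in control pools (log2 ratio -0.55 ± 0.34, adjusted p = 0.46).

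**Figure D2:**
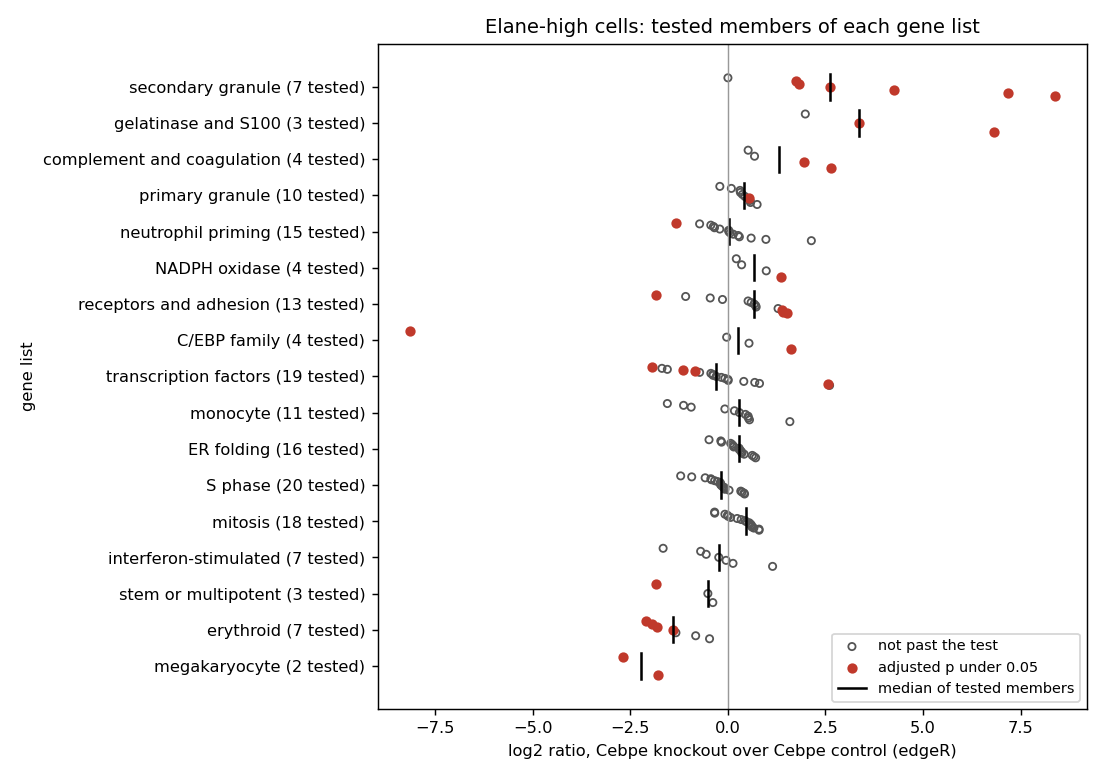
Log2 ratio of Cebpe knockout to Cebpe control in Elane-high cells for the tested members of 17 gene lists. Filled points passed an edgeR adjusted p of 0.05, open points did not, and the black bar is the median of the tested members. A member could enter the test through its level in a single group. Of the 7 secondary granule points, 6 passed and lie to the right, Pglyrp1 did not pass, and the median of the 7 is 2.62. The primary granule points have a median of 0.41, and the erythroid points have a median of -1.41.

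Of 7 tested erythroid genes (16 listed), 4 were lower in the knockout than in the control (Car1, Car2, Klf1 and Blvrb), with a median log2 ratio of -1.41. Of 11 listed megakaryocyte genes 2 were tested, and both were lower (Pf4 and Cd9). Over all genes tested, 0.789% were lower. Against unsorted cells only Cd9 of the 2 megakaryocyte genes was called, and their median was 0.04. Car1, carbonic anhydrase 1, had 167, 194, 79.0 and 134 CPM in knockout pools, 428 and 553 CPM in control, 521 and 537 CPM in the Cebpa control and 147 to 380 CPM in unsorted pools. The log2 ratio was -1.81 ± 0.26 to control (edgeR quasi-likelihood, Benjamini-Hochberg adjusted p = 2e-05), -1.91 to the Cebpa control and -0.92 to unsorted cells. In the same cells the summed level of 9 erythroid markers was 345 to 586 CPM in knockout, 1241 to 1596 CPM in control, 489 to 951 CPM in unsorted and 1335 to 1680 CPM in Cebpa control pools. Over all cells of a pool, Elane-high or not, that sum, without TMM scaling, was 2615 to 3776 CPM in the knockout, 9310 to 10997 CPM in the control, 7425 to 11419 CPM in unsorted and 10757 to 11233 CPM in Cebpa control pools. Whole-pool sums of the unsorted and control pools thus overlapped while those of their Elane-high cells did not, and the part of RNA from other wells in these levels was not tested. Empty wells held a mean of 61.5 to 78.5 UMIs in knockout pools and 43.0 to 62.5 in control pools.

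Pf4, platelet factor 4, had 31.5, 36.0, 8.32 and 0 CPM in knockout and 96.6 and 125 CPM in control pools, against 14.5 and 0 CPM in the Cebpa control pools. Its call against the Cebpe control (log2 ratio -2.68, edgeR quasi-likelihood, Benjamini-Hochberg adjusted p = 0.048) was lost without control pool 1 (adjusted p = 0.23) or control pool 2 (adjusted p = 0.31). Klf1, the erythroid zinc finger factor, and Blvrb, biliverdin reductase B, had log2 ratios of -1.95 ± 0.43 and -2.10 ± 0.35 and lost their calls without control pool 2 (adjusted p = 0.37 and 0.13). Prg2, the eosinophil major basic protein, was set by a few cells. Its 128 control UMIs were all in control pool 1, and 124 of them (96.9%) were in 3 cells. The log2 ratio of -7.14 (adjusted p = 0.012) became 2.32 without that pool (adjusted p = 0.97). Cells with Car1 or Prg2 at 0.2% or more of their UMIs numbered 3 and 4 in the control pools and 1, 2, 1 and 0 in the knockout pools. Without them 95 genes were called.

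The unsorted progenitors served as a reference with more pools, although age, facility, sequencing batch and genotype cannot be told apart there. By the same edgeR fit 1281 of 4690 genes differed between knockout and unsorted Elane-high cells (27.3%), 638 higher (13.6%) and 643 lower (13.7%), and 144 differed between the Cebpe control and unsorted cells (3.07%), 99 higher in the control (2.11%) and 45 lower (0.959%). The comparisons share pools, so their values are only set side by side. Chi3l3 had a log2 ratio of 8.09 for knockout to unsorted and -0.29 for control to unsorted. Lcn2 was higher in the knockout by 4.72, S100a8 by 5.80 and Cd177 by 5.62. On the gene lists, 6 of 7 secondary granule genes rose against unsorted cells with a median of 2.31, 5 of 10 primary granule genes rose, and 3 of 7 erythroid genes fell. Among monocyte genes 5 of 11 rose and 1 fell, and among mitosis genes 7 of 18 rose and 2 fell. Endoplasmic reticulum folding genes gave 1 rise and 3 falls among 16, and S phase genes 1 rise and 4 falls among 20. Not every gene called against the control followed: 0610009D07Rik had a log2 ratio of -3.19 to control (adjusted p = 0.001) and -0.23 to unsorted cells (adjusted p = 0.78).

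The Cebpa control was taken up as a further reference after the data were seen, because it shares the sequencing batch of the knockout. Against it 160 of 4667 genes differed (3.43%), 114 higher in the knockout (2.44%) and 46 lower (0.986%), by the edgeR quasi-likelihood test. Chi3l3 had a log2 ratio of 4.78 ± 0.60 (adjusted p = 2.2e-06), S100a8 of 4.64 ± 0.63 (adjusted p = 6.8e-06), Lcn2 of 3.94 ± 0.41 (adjusted p = 3e-08), F10 of 1.44 (adjusted p = 0.0044) and Myb of -1.06 (adjusted p = 0.0046). The smaller ratio of Chi3l3 goes with 1 pool: the second Cebpa control pool was at 287 CPM and the first at 0. Below the Elane cut the Cebpa control pools were at 3.29 to 157 CPM without TMM scaling.

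Knockout cells had more Elane each than control cells, so levels were also set out by Elane share, here without TMM scaling. The bands of 0.5% to 1%, 1% to 2% and 2% or more held 62, 167 and 180 knockout cells, 25, 35 and 6 control cells, and 256, 303 and 121 unsorted cells. Chi3l3 was at 435, 3010 and 7115 CPM in these bands of the knockout, against 9.33, 0 and 174 CPM in the control and 8.58, 15.5 and 29.5 CPM in unsorted cells. Lcn2 was at 272, 925 and 1661 CPM in the knockout and 42.9, 36.8 and 61.9 CPM in unsorted cells. In every band, then, both genes were above the same band of the control and the unsorted cells, and inside the knockout they were higher where Elane was higher. Fcnb was at 29.3, 229 and 543 CPM in the knockout and 8.58, 50.4 and 410 CPM in unsorted cells, so its top bands lay close together. Cd34 was at 130, 45.7 and 7.37 CPM in the knockout and 296, 189 and 41.3 CPM in unsorted cells. Mpo was at 14470, 18699 and 24992 CPM in the knockout and 15890, 21612 and 28916 CPM in unsorted cells, below them in each band, while over all Elane-high cells its log2 ratio to unsorted cells was 0.09. Between 0.5% and 2% Elane the edgeR test called 37 genes. Fcnb (log2 ratio 1.74, adjusted p = 0.12), Itgam (0.91, adjusted p = 0.55), Csf3r (1.13, adjusted p = 0.26) and Prtn3 (0.39, adjusted p = 0.16) were not among them.

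**Figure D3:**
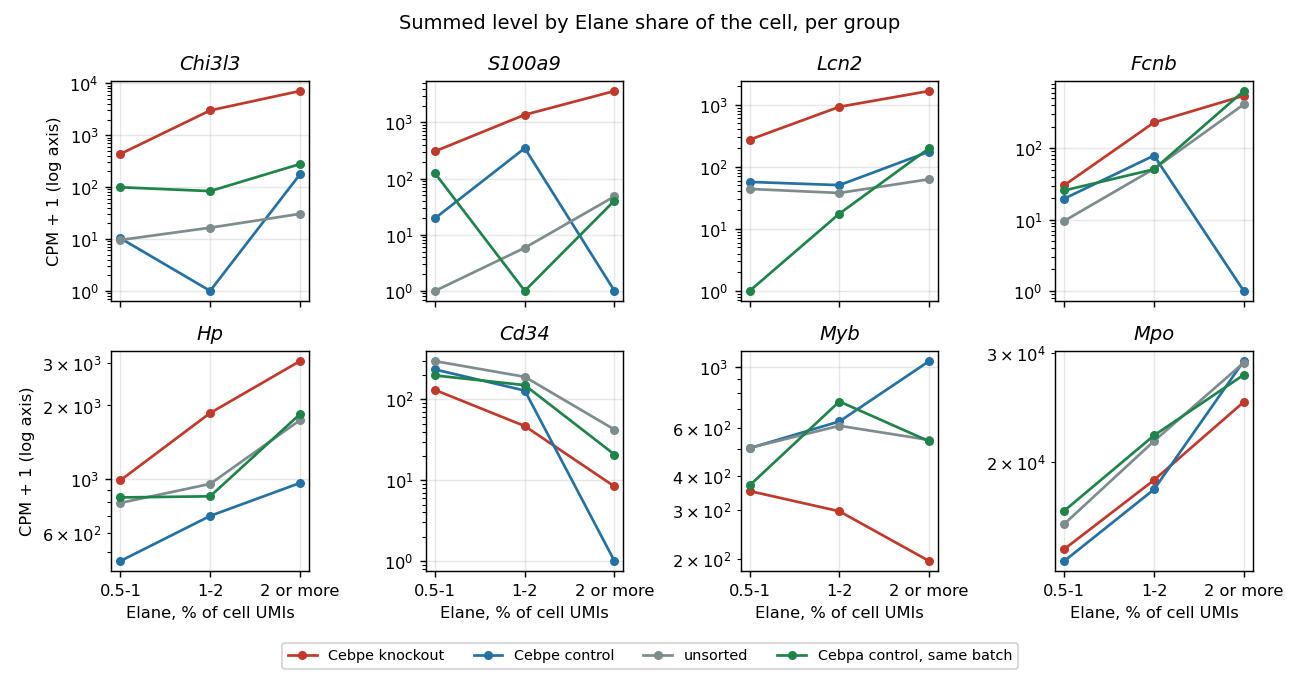
Summed level of 8 genes, as CPM + 1 without TMM scaling on a log axis, in cells grouped by Elane share of their UMIs (0.5% to 1%, 1% to 2%, 2% or more), with 1 line for each group. Chi3l3 and Lcn2 of the knockout lie above the other lines in all 3 bands, and the control's last band rests on 6 cells.

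The rise was spread over cells. With each cell thinned to 1000 UMIs, which left 377 knockout, 61 control and 673 unsorted cells and dropped 32, 5 and 7 shallower ones, Chi3l3 had a UMI in 71.1% of knockout cells (61.1% to 77.1% by pool), 1.64% of control and 1.34% of unsorted cells. Without thinning the shares were 87.5%, 4.55% and 2.79%. Lcn2 had a UMI in 55.4% (52.2% to 58.9% by pool), 8.20% and 3.42% of thinned cells, and S100a9 in 49.3%, 3.28% and 0.743%. S100a8 was seen in 38.5% of knockout cells and in 0 of 61 control cells. Shares in cells that should lack these genes give a background: among thinned cells below the Elane cut with Car1 at 0.2% or more, Chi3l3 had a UMI in 16.3% of 49 knockout cells, 2.22% of 90 control cells and 0 of 927 unsorted cells. In the Cebpa control Chi3l3 was in 7.97% of 138 such Car1 cells and 5.88% of 68 Elane-high cells. The second Cebpa control pool had 13.9% and 12.1%, so its Chi3l3 share in Elane-high cells cannot be read apart from background. For S100a8 the background was 28.6% in the knockout, S100a9 gave 22.4% and Lcn2 16.3%, and these knockout Car1 cells had a median of 4901 UMIs. In each knockout pool, Chi3l3, S100a9 and Lcn2 were found more often in Elane-high than in Car1 cells. By pool the Car1 shares were 0% to 36.4% for Chi3l3, 9.09% to 33.3% for S100a9 and 0% to 27.3% for Lcn2, on few cells. With the cells of the pools merged, the exact intervals of these genes did not overlap. Such intervals cover counting error only and not the spread between pools. For S100a8 the intervals overlapped (33.5% to 43.6% and 16.6% to 43.3%). By pool, S100a8 was in 54.3%, 40.0%, 32.6% and 24.1% of Elane-high cells and in 50.0%, 21.4%, 36.4% and 8.33% of the 11 to 14 Car1 cells, so knockout pool 3 had the opposite order and the share in Elane-high cells cannot be read apart from background.

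Of the thinned knockout cells, 47 (12.5%) had none of Chi3l3, S100a8, S100a9 and Lcn2, 72 had 1, 93 had 2, 110 had 3 and 55 (14.6%) had all 4. Of 61 control cells, 54 (88.5%) had none, 6 had 1 and 1 had 2. Unsorted cells had none in 632 of 673 cases (93.9%), and Cebpa control cells in 58 of 68 (85.3%). The 4 knockout pools gave 5.71% to 18.4% with none and 10.0% to 21.0% with all 4, so each pool held the whole range. As background, 22 of 49 knockout Car1 cells below the Elane cut (44.9%) had none. Of the rest, 15 had 1, 10 had 2, 2 had 3 and 0 had all 4. The 4 genes include S100a8, whose share could not be read apart from background. Levels without TMM scaling were lower below the Elane cut than above it, to different degrees. Chi3l3 was at 337 CPM in 150 knockout cells, 5.43 CPM in 184 control cells and 0.132 CPM in 2052 unsorted cells, and Lcn2 at 121, 7.61 and 2.64 CPM, against 4024 and 1078 CPM in knockout Elane-high cells. S100a8 differed less across the cut: it was at 315 CPM in knockout cells below it and 475 CPM in those above, and at 364, 378 and 668 CPM in the 3 Elane bands.

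**Figure D4:**
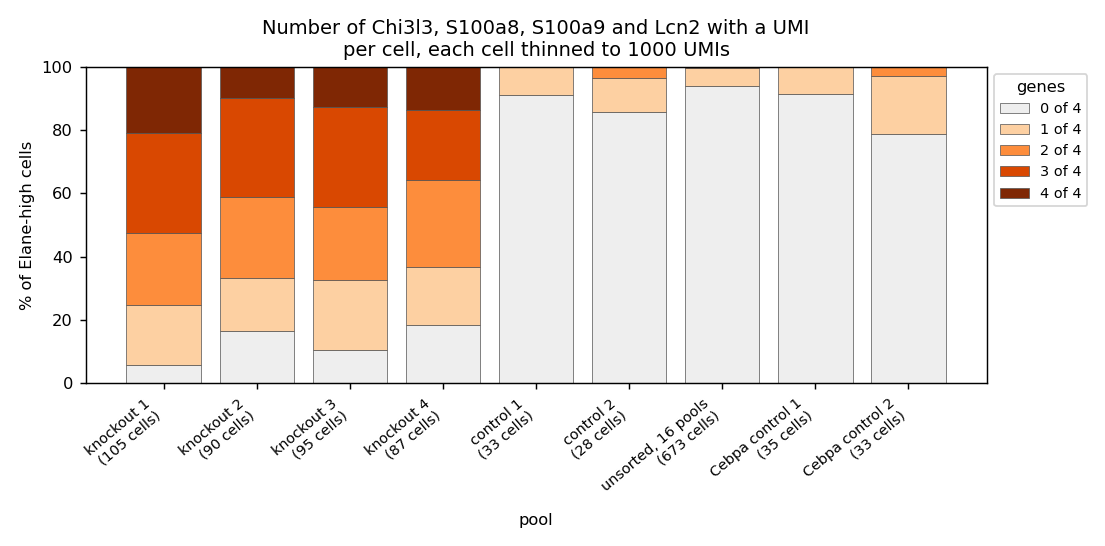
Share of Elane-high cells with a UMI of 0, 1, 2, 3 or all 4 of Chi3l3, S100a8, S100a9 and Lcn2, with every cell thinned to 1000 UMIs, in percent of cells for each pool (unsorted pools together). In the knockout pools 5.71% to 18.4% of cells had none of the 4, against 88.5% of control and 93.9% of unsorted cells. Background cells are not drawn: of knockout Car1 cells below the Elane cut, 44.9% had none.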

How the data were processed

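Single progenitors were profiled in 54 pools. The UMI counts per gene and well (27297 gene rows, 10368 wells) were deposited by the authors without normalization. The well table gives pool, plate, group and surface intensity of CD34 and FcgR, as deposited by the authors on a linear scale. The submitters' processing notes name bcl2fastq 2.15.0.4 and the build mm9, with the aligner and the UMI steps not given in the sources used here. Groups follow the well table.

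UMIs of Elane-high cells were summed per pool, which gave 4 knockout, 2 control and 16 unsorted pools. Pools were scaled by TMM, filtered with filterByExpr and tested with edgeR 4.0.16 (R 4.3.3) in 1 fit over these groups, with Elane left out of the results. A second fit added the Cebpa control pools. CPM of pools were computed here from the TMM-scaled library size of the Elane-high cells. CPM of Elane bands, of cells below the cut and of whole pools were divided by total UMIs, without TMM scaling. A count of 0 in a group was set to 3 for a bound. Intervals are exact at 95% and cover counting error only. Python 3.11.15, scipy 1.17.1 and DESeq2 1.42.0 (an alternative) were also used. Wells were sorted to hold 1 cell, so no doublet caller was run, and no well ID was repeated. Rows joining several symbols (2109) were left out of the lists. Promoters are from RefSeq (GRCm38.p6), a build other than that of the files, so no coordinate was joined to the counts.

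The cells, gene lists and tests were chosen with earlier results of these data known. Named genes included the 10 highest and 10 lowest log2 ratios of knockout to control. These had an edgeR adjusted p under 0.05, at least 100 CPM in the higher group and no overlap of knockout and control pools. A large ratio and a lack of overlap were thus part of that choice. Also named were the C/EBP family and granule, S100 and transcription factor genes with at least 100 CPM in a group. Each other list of the 22 gave up to 4 genes, beside lineage genes. On simulated counts (4369 genes, 193 changed) 32.6% of the 2-fold changes and 87.5% of the 4-fold changes were called. Of the calls, 3.23% were false. These counts had a common dispersion (spread between pools) of 0.0295. Counts whose spread differs between genes, or which lie in a few cells as for Prg2, were not tested in this way. Alternatives covered scaling, filters, the Elane and UMI cuts, thinning, plate sums, grouping by label, DESeq2, and leaving out each pool.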

Additional observations from a re-analysis of the deposited data

Results flagged for a closer look

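Among 35 values examined over the 4 knockout pools, 4 had 1 pool apart from the others by Dixon's criterion, which flags about 1 in 20 groups by chance. Hdc was at 139 CPM in knockout pool 1 and at 173 to 176 CPM in the other pools, and all 4 were below both control pools. Myc was at 227 CPM in knockout pool 4 and at 303 to 314 CPM in the others. Cebpd was at 3.60 CPM in knockout pool 2, from 1 UMI, and at 0 in the others. Median surface FcgR was 4527 intensity units in knockout pool 1 and 3920 to 3989 in the others.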

How the results depend on the processing

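The count for knockout against control was 100 and stayed within 1.5 times of that with RLE scaling (100), DESeq2 (85), no filter (116), a minimum of 1000 UMIs (99), an Elane cut of 0.25% (111), primary granule genes left out of the scaling (101) and cells with Car1 or Prg2 left out (95). It was 57 at an Elane cut of 1%, 37 between 0.5% and 2% Elane, 15 with cells thinned to 500 UMIs (fewer genes tested), 36 with plates as the unit (1 control plate, assumed to vary like the plates of the other groups), 172 with only knockout and control fitted, 160 with the Cebpa control as reference and 515 when pools were grouped by GEO label. Against unsorted cells 1281 became 753 between 0.5% and 2% Elane, 110 with thinning and 819 by plate, and control against unsorted went from 144 to 13 with thinning and 25 by plate. Leaving out 1 pool gave 32 to 90 for knockout against control, 894 to 1338 for knockout against unsorted and 18 to 144 for control against unsorted (18 without control pool 1, 52 without control pool 2).

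Grouping by GEO label, which moves pools between the groups, was left out of the counts of genes that follow. Only 29 of the genes described were followed through the alternatives, and 27 of those were called. Other called genes, such as Ncf4, Csf2ra, Csf2rb, Id1, Cd9 and 0610009D07Rik, were not followed. Of the 27, 10 passed under every other alternative in which they were tested with the Cebpe control as reference. They were Chi3l3, S100a8, Lcn2, Hp, C3, 1100001G20Rik and Car1 in 19, F10 and Cebpe in 18 (too low with thinning) and Cd177 in 17 (too low with thinning and between 0.5% and 2% Elane). Also, 13 of the 27 passed whichever pool was left out, and 21 kept their direction throughout. With the Cebpa control as reference the log2 ratio was 0.011 for Myc, 0.12 for Hdc, -0.039 for Prtn3, -0.084 for Mpo, 1.23 for Pf4 and 1.01 for Cd27. Ctsg was at -0.0049 at an Elane cut of 1%, and with 1 pool left out it ranged from -0.093 (without control pool 1) to 0.308 (without control pool 2). Prg2 ranged from -8.30 (without knockout pool 2) to 2.32 (without control pool 1). The cause of these changes was not tested. No paired analysis was possible because pool numbers only name the pools, and the groups come from different plates and mouse IDs. With 66 control cells, a gene near 10 CPM rests on 1 to 3 UMIs, and 4 pools against 2 cannot give an exact p below 0.133.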
